A study of Mus musculus with 18 samples.

Results

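Matrix metalloproteinases and the tissue inhibitors that block them were followed in cultured mouse fibroblasts of the NIH/3T3 line, which derives from embryos, with and without exportin 4 (XPO4), a nuclear export receptor. They were taken as 10 genes listed by name, Mmp2, Mmp3, Mmp9, Mmp10, Mmp13, Mmp14, Mmp19, Timp1, Timp2 and Timp3, out of 55401 gene IDs counted by mRNA-seq. Of the 10, 7 passed the filter on low counts and were compared between genotypes. The mRNA-seq data hold 3 libraries in each group, one group from wild-type (WT) cells and one from XPO4 knockout (KO) cells. The KO line was made from NIH/3T3 cells with CRISPR-Cas9, and the study's methods state that both Xpo4 copies carry an identical edit. All KO libraries come from a line made this way, and traits of that line cannot be told apart from the loss of XPO4. Both groups grew in DMEM with serum and penicillin/streptomycin, and no treatment that differed between them is named.

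Per library, between 16974062 and 22057323 read pairs were counted in genes. The column heading inside each of the 6 mRNA files names the other genotype than the sample title. The titles were followed, so KO and WT here mean the libraries labelled so, and each direction would turn if the headings were right. Xpo4 counts were 712, 504 and 687 in the KO and 657, 614 and 685 in the WT libraries. The genotypes overlapped (log2 fold change 0.18, SE 0.11, adjusted p = 0.193 by edgeR's quasi-likelihood test), so Xpo4 mRNA did not check the labels. A count over the whole gene need not see a small edit. KO replicate 2 stood apart from the other KO libraries, with a chi-square per gene of 10.6 and 12.3 against them. Other pairs within a genotype lay between 3.06 and 4.98, and no pair differed by as little as counting noise.

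Matrix metalloproteinases are zinc enzymes that cleave proteins of the extracellular matrix and of the cell surface. Most are secreted as inactive proenzymes, and tissue inhibitors of metalloproteinases (TIMPs) bind the active enzymes in their catalytic site. Fibroblasts make several of them, and a well known arrangement at the fibroblast surface joins 3 of the genes followed here: MMP14, anchored in the membrane, binds TIMP2, which in turn holds proMMP2 for activation. Many inducible metalloproteinase promoters are known for an AP-1 site, bound by Fos and Jun proteins, close to a TATA box.

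The promoter sequences are shown because for the genes with a window, they divide into the same groups as expression in these cells. RefSeq windows (GRCm38.p6) of 250 bases before to 50 after the transcription start were matched for 7 of the 10 genes. Mmp2, Mmp9 and Mmp19, which were expressed, had no window, so their promoter letters were not read. Below are the 100 bases before the start for the windows where these hold no annotated exon, 5′ to 3′ on the gene's strand. Capitals mark the AP-1 letters (TGAGTCA, or TGACTCA on the other strand), the TATA letters (TATAAA, given strand only) and the GC box (CCGCCC, or GGGCGG on the other strand).
Mmp3, chr9:7445722-7445821, plus strand: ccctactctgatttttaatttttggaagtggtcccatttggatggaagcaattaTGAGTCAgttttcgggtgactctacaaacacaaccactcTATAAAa
Mmp10, chr9:7502242-7502341, plus strand: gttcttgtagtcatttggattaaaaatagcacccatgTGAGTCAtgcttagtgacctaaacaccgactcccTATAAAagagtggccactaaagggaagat
Mmp13, chr9:7272414-7272513, plus strand: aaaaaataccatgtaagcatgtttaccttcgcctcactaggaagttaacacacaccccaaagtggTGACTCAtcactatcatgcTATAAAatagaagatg
Mmp14, chr14:54431498-54431597, plus strand: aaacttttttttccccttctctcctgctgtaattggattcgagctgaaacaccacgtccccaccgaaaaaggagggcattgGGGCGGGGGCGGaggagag
Timp1, chrX:20870066-20870165, plus strand: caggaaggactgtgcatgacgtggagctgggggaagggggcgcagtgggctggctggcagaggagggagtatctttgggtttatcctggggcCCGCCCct

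The Mmp3, Mmp10 and Mmp13 windows each held 1 AP-1 match and 1 TATA match and no GC box. Among all 32851 windows, 5.20% held the AP-1 letters, 8.32% the TATA letters and 35.7% a GC box. The AP-1 letters began 46 bases before the RefSeq start in Mmp3, 63 in Mmp10 and 35 in Mmp13. An ETS core (GGAA, either strand) lay within 30 bases of them in Mmp3 and Mmp13 but not in Mmp10, and 2.46% of all windows held this pair. The Mmp14, Timp1, Timp2 and Timp3 windows held neither AP-1 nor TATA letters and had 2, 1, 1 and 2 GC boxes. Such matches describe letters in a window, not bound sites.

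**Figure D1:**
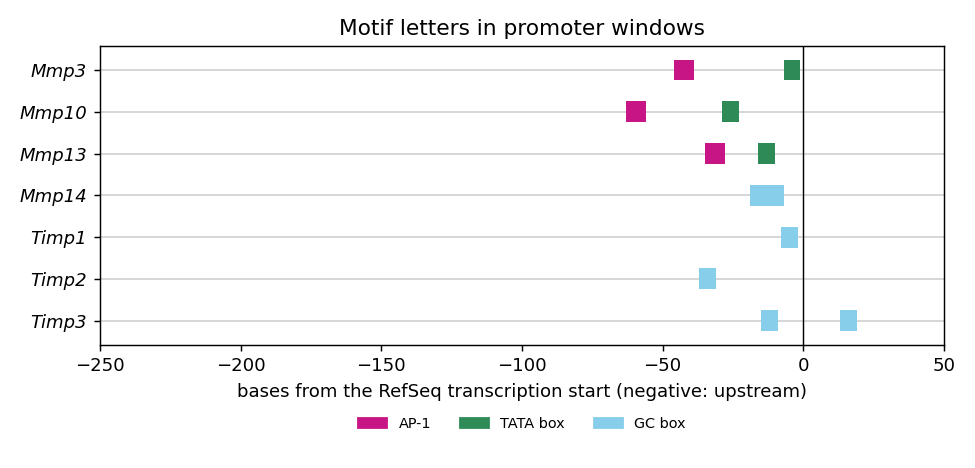
Positions of motif letters in the RefSeq promoter windows of 7 genes, in bases from the transcription start (vertical line), on windows of 250 bases before to 50 after it. Mmp3, Mmp10 and Mmp13 carry an AP-1 and a TATA block each, and the other 4 genes carry only GC boxes.

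Among the 7 genes with a window, the 3 with AP-1 and TATA letters were the 3 almost silent in both genotypes. They lie in the same gene cluster and are not independent cases. Mmp3 (stromelysin 1; chr9:7445822-7455975) had 3 reads in KO replicate 1 and 0 in every other library. Mmp10 (stromelysin 2; chr9:7502352-7510240) had 0 reads in all 6 libraries. Mmp13 (collagenase 3; chr9:7272514-7283331) had 0 reads in each KO library and 1, 5 and 2 in the WT libraries. At these depths a count of 0 allows up to 3 reads, or at most 0.0981 FPKM for Mmp3, 0.103 for Mmp10 and 0.0661 for Mmp13, a limit that covers counting error only. FPKM is the usual count of read pairs scaled to a gene's exon length and to the library's counted pairs, so that levels can be compared between genes. None of the 3 passed the filter, and with no filter Mmp13 (adjusted p = 0.0874) and Mmp3 (0.292) missed the threshold of 0.05 in edgeR.

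These 3 genes sit in a cluster of 10 metalloproteinase genes that spans 427.1 kb of chromosome 9. The cluster also holds the collagenase genes Mmp1a, Mmp1b and Mmp8, the macrophage elastase gene Mmp12, and Mmp7, Mmp20 and Mmp27. All 10 genes together gave 12 reads over 6 libraries, and 7 of them were at 0 in each library. Genes on either side were expressed: Dync2h1 and Dcun1d5 had from 465 to 1612 reads in a library, and Tmem123 and Birc2 from 441 to 1359.

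The other 7 genes were expressed in both genotypes. In the WT libraries the order by mean FPKM was Timp2, Timp1, Mmp2, Mmp14, Timp3, Mmp9 and Mmp19. The ranges of neighbours in that order did not overlap, although Mmp14 exceeded Timp3 by only 1.12-fold and Mmp9 exceeded Mmp19 by 1.12-fold. In the KO libraries Mmp2 stood above Timp1, and Mmp19 above Mmp9. All KO neighbours were again apart in their ranges. Timp2 lay at percentile 99.2 of all genes tested by mean FPKM, Mmp2 at 98.1 and Timp1 at 98.0, while Mmp19 lay at 71.5 and Mmp9 at 56.4.

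**Figure D2:**
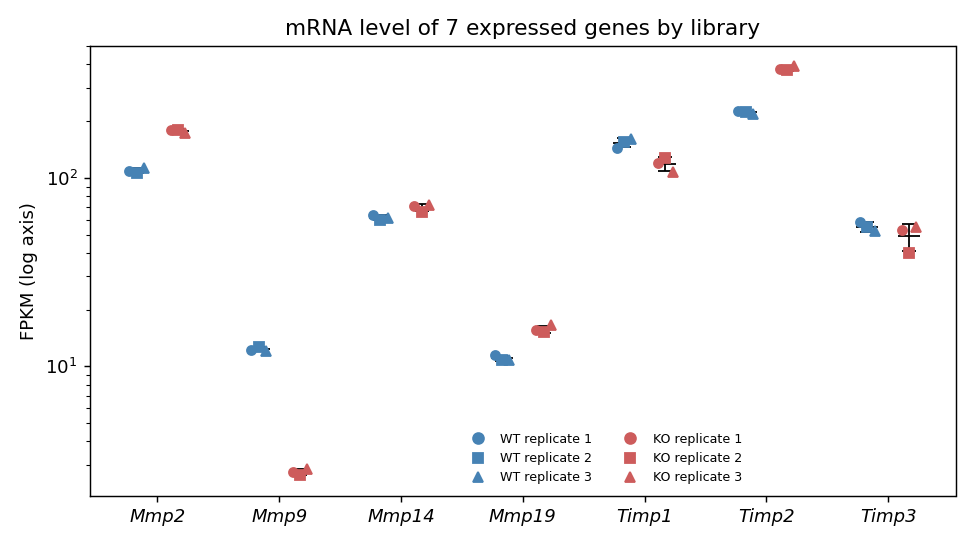
FPKM on a log axis for the 7 expressed genes, 3 WT and 3 KO libraries each, with marker shape for the replicate number and black marks for the mean and SD. Mmp2, Timp2 and Mmp19 sit higher and Mmp9 and Timp1 lower in KO, Mmp14 differs slightly, and Timp3 overlaps.

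Against WT, 6 of the 7 genes tested changed in KO: Timp2, Mmp2, Mmp19 and Mmp14 were higher and Mmp9 and Timp1 lower, and Timp3 missed the threshold. Calls were common over all genes, with 48.7% of 14688 tested genes past an adjusted p of 0.05 (25.1% higher and 23.6% lower in KO). The scaled CPM (counts relative to the TMM-scaled library total) of 6 of the 7 did not overlap between genotypes, as in 57.8% of all genes tested. The median log2 fold change was 0.18 over the 7 genes and -0.0029 over all genes. With so many genes called, the sizes say more than the count. Adjusted p-values here are from edgeR's quasi-likelihood test over all genes tested, and they measure the spread between these libraries, which may be technical since no source used here says that they came from separate cultures.

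The 2 gelatinases, which cleave denatured collagen and basement membrane collagen IV, moved in opposite directions. Mmp2 (gelatinase A; chr8:92827291-92853420) measured 179.1, 179.1 and 172.8 FPKM in KO replicates 1, 2 and 3 and 108.5, 106.0 and 113.5 in WT replicates 1, 2 and 3. Every KO library was well above every WT library. Mmp2 was 1.62-fold higher in KO (log2 fold change 0.69, SE 0.05, adjusted p = 1.91e-07). That placed it at percentile 92.0 of all log2 fold changes.

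Mmp9 (gelatinase B; chr2:164940780-164955850) showed the largest difference of the 7. Its FPKM was 2.76, 2.65 and 2.85 in the KO libraries and 12.3, 12.7 and 12.1 in the WT libraries. Both groups were tight, with coefficients of variation of 3.61% and 2.53%, and far apart. Mmp9 was 4.50-fold lower in KO (log2 fold change -2.17, SE 0.08, adjusted p = 1.33e-10). It lay at percentile 1.15 of all log2 fold changes, and 5.34% of genes tested were called with a log2 fold change of -1 or less. No gene of the 7 was called at 1 or more, as 4.27% of those tested were. The counts behind it ran from 168 to 174 in KO and from 863 to 946 in WT. Leukocytes are a rich source of MMP9, and myeloid and neutrophil markers were therefore read. Ptprc (CD45) counts were 32, 26 and 21 in KO and 108, 103 and 105 in WT. Its mean level was low in both, 0.0816 and 0.281 FPKM. Lyz2 went the other way, with 11, 10 and 13 reads in KO and 3, 1 and 2 in WT. Over the whole myeloid list, 5 of 8 markers passed the filter, with 1 higher (Lyz2) and 2 lower (Ptprc and Cd68) in KO. Calls over all genes tested came to 48.7%. The summed level of the list ran from 8.45 to 10.5 FPKM in KO and from 10.8 to 12.7 in WT. Csf1r had from 27 to 46 reads in a library and Cd14 from 149 to 268, with neither called, while Adgre1 and Itgam reached at most 2. Of 5 neutrophil markers, S100a9, Ly6g, Elane and Mpo were at 0 in each library, and S100a8 had 0, 0 and 1 reads in KO and 3, 3 and 9 in WT. Whether such cells were present, and any part of them in the Mmp9 difference, was not tested. Fewer cells of a type and less RNA per cell cannot be told apart in these bulk samples.

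Mmp14 (membrane type 1; chr14:54431612-54445364), a collagenase held at the cell surface, differed little. It measured 70.9, 66.3 and 71.8 FPKM in KO and 63.7, 59.7 and 61.3 in WT. The lowest KO library exceeded the highest WT library by a small margin. The difference of 1.13-fold (log2 fold change 0.18, SE 0.05, adjusted p = 0.0147) was lost without WT replicate 2 (0.15, adjusted p = 0.0835) and without WT replicate 3 (0.17, adjusted p = 0.0590).

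Mmp19 (chr10:128790910-128800824), an enzyme of basement membrane and tissue matrix, measured 15.6, 15.2 and 16.5 FPKM in KO and 11.5, 10.8 and 10.8 in WT. No KO value reached down to the WT range. Mmp19 was 1.43-fold higher in KO (log2 fold change 0.51, SE 0.06, adjusted p = 1.95e-05). Chromosome 10 as a whole was higher in KO: the median log2 fold change of its 689 tested genes was 0.45, with 66.0% called higher and 8.27% lower. Mmp19 stood at percentile 56.5 within its chromosome, 0.07 above that median on the log2 scale. How far the shift of the chromosome accounts for Mmp19 was not tested. Reads that fall on 2 genes are not assigned by default, and Mmp19 overlaps Tmem198b, whose counts were 482, 407 and 397 in KO and 235, 282 and 310 in WT.

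Among the inhibitors, Timp2 was higher in KO, Timp1 was lower and Timp3 did not pass the test. Timp2 (chr11:118301069-118355740, minus strand), which inhibits MMP2 and also takes part in its activation, was the most abundant of the 10 mRNAs in either genotype. It measured 380.3, 371.4 and 390.5 FPKM in KO and 227.6, 223.6 and 219.2 in WT. The groups lay far apart, with coefficients of variation of 2.51% and 1.87%. Timp2 was 1.70-fold higher in KO (log2 fold change 0.77, SE 0.05, adjusted p = 3.26e-08).

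Timp1 (chrX:20870166-20874735), a secreted inhibitor and a partner of proMMP9, measured 120.4, 127.7 and 108.0 FPKM in KO and 144.6, 155.3 and 161.3 in WT. All 3 KO libraries fell below the lowest WT library. Timp1 was 1.30-fold lower in KO (log2 fold change -0.37, SE 0.07, adjusted p = 0.00071). The gene lies inside Syn1 on the other strand, and Syn1 had from 127 to 269 reads in a library. The other inhibitor genes overlap too: Timp3 lies inside Syn3 on the other strand (18 to 57 reads), and Timp2 overlaps Cep295nl on its own strand (9 to 24 reads).

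Timp3 (chr10:86300372-86349506), the inhibitor that binds to the matrix itself and also blocks ADAM17, measured 52.7, 39.8 and 54.7 FPKM in KO and 58.6, 54.7 and 52.2 in WT. KO replicate 2 was the low value, and the other KO libraries fell within the WT range. The log2 fold change was -0.17 (SE 0.09, adjusted p = 0.143), and -0.04 (adjusted p = 0.508) without KO replicate 2. Without KO replicate 3 it was -0.25 (adjusted p = 0.0476), and with no filter on low counts -0.17 (adjusted p = 0.0169). In KO replicate 2 the deviation of genes from the other KO libraries ran against gene length (Spearman rho -0.577 across 11062 genes, which are not independent replicates). The other libraries showed length trends too, from -0.311 in WT replicate 3 to 0.478 in KO replicate 3. KO minus WT also ran against length (rho -0.198, and -0.107 without KO replicate 2). Timp3 has the longest exon sequence of the 10 genes, 8144 nt. The part of length in the Timp3 value, or in those of other genes, was not tested. Against the chromosome 10 median Timp3 lay 0.62 lower on the log2 scale, at percentile 13.6 of that chromosome.

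**Figure D3:**
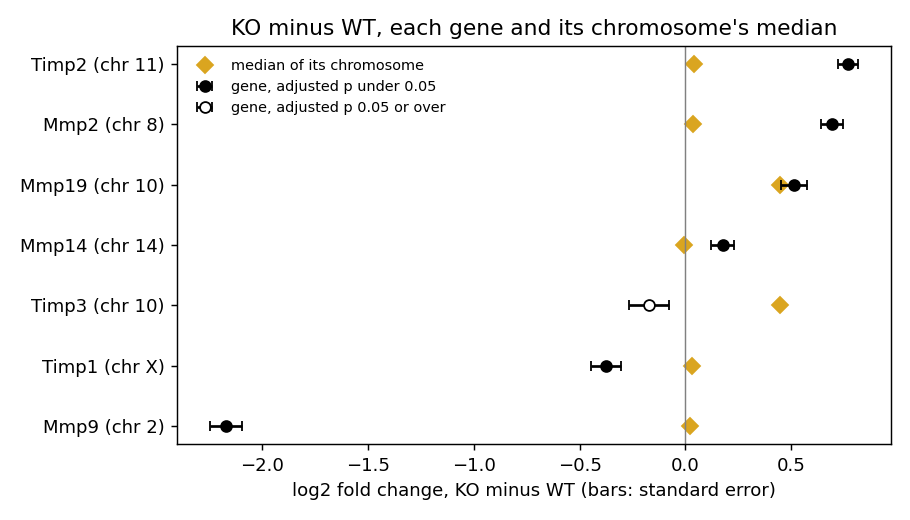
Log2 fold change of KO against WT for the 7 genes tested, with the standard error as bars, and the median of all tested genes on the same chromosome as diamonds. Mmp9 lies far to the left at -2.17, Timp2 and Mmp2 lie right of their chromosome medians, Mmp19 lies at the chromosome 10 median, and Timp3 (open circle) lies left of it.

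For the other 5 genes tested the chromosome medians were close to 0, between -0.0052 and 0.04. Relative to these, Mmp2 differed by 0.66, Timp2 by 0.73, Mmp14 by 0.18, Timp1 by -0.41 and Mmp9 by -2.19 on the log2 scale. Without KO replicate 2 the log2 fold changes of these genes were 0.68 for Mmp2, 0.78 for Timp2, 0.21 for Mmp14, -0.43 for Timp1 and -2.14 for Mmp9, all still called, as was Mmp19 at 0.54.

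Mmp2 and Timp2 held larger shares of the enzyme and inhibitor mRNA in KO than in WT. Summed over the 7 metalloproteinase genes, the level was 265 ± 2.85 FPKM in KO and 194 ± 4.43 in WT (SD, n = 3 each). Mmp2 made up 66.7% of it in KO and 56.2% in WT, Mmp14 26.3% and 31.7%, Mmp19 5.95% and 5.68%, and Mmp9 1.04% and 6.36%. The 3 inhibitors summed to 549 ± 8.27 FPKM in KO and 432 ± 1.39 in WT. Timp2 held 69.4% of the inhibitor sum in KO and 51.7% in WT, Timp1 21.6% and 35.6%, and Timp3 8.95% and 12.8%. These are shares of mRNA, not of protein or enzyme activity.

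Within each library, ratios of enzyme to inhibitor mRNA cancel the depth. The log2 ratio of Mmp2 to Timp2 was -1.09, -1.05 and -1.18 in KO and -1.07, -1.08 and -0.95 in WT. The genotypes overlapped, with both genes higher in KO (-1.10 ± 0.06 in KO, -1.03 ± 0.07 in WT; SD, n = 3). Mmp14 to Timp2 was -2.42, -2.49 and -2.44 in KO and -1.84, -1.90 and -1.84 in WT. All KO values lay below all WT values, and Timp2 FPKM stood 5.47-fold above Mmp14 FPKM in KO and 3.63-fold above it in WT. Mmp9 to Timp1 was -5.45, -5.59 and -5.25 in KO and -3.56, -3.61 and -3.73 in WT. That put Timp1 43.1-fold above Mmp9 in KO and 12.4-fold above it in WT, again with no overlap.

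Summed enzymes to summed inhibitors gave -1.05 ± 0.02 in KO and -1.15 ± 0.04 in WT. These values did not overlap either, but they differed by just 0.11 on the log2 scale, against 0.59 and 1.79 for the Mmp14 and Mmp9 ratios. The ratios are given as descriptions, with no test.

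**Figure D4:**
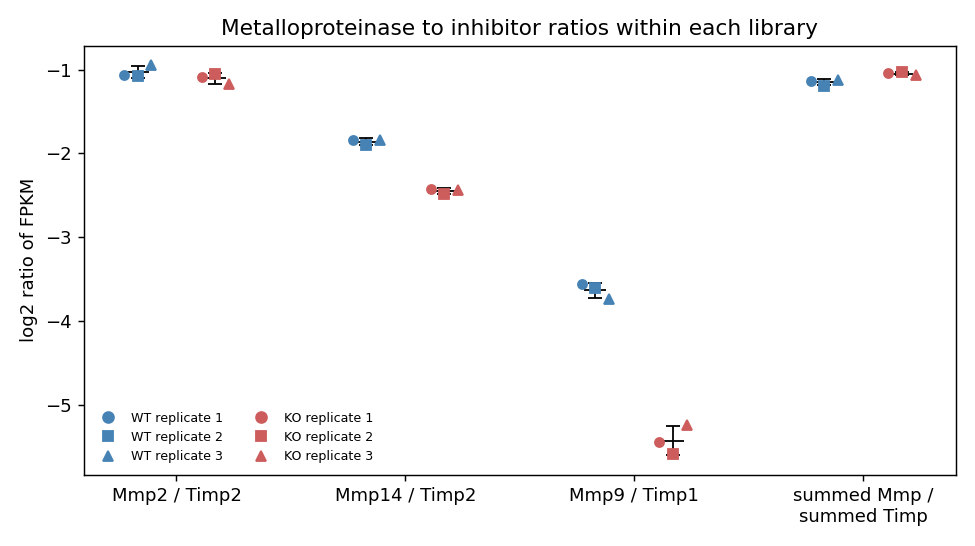
Log2 ratio of FPKM within each library for 3 enzyme and inhibitor pairs and for the sums, WT and KO libraries side by side, black marks giving the mean and SD. Mmp14 to Timp2 and Mmp9 to Timp1 are lower in KO by 0.59 and 1.79, and Mmp2 to Timp2 overlaps.

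One circular RNA was found inside the 10 genes, out of 16164 circRNAs listed at one position in 12 further libraries, in which linear RNA was digested with RNase R and reads across backsplice junctions were counted. It came from Timp2 (chr11:118310576-118320209, minus strand) and joined exon 4 back to exon 2 of 5, a circle of 335 nt once spliced. The junction is shown because it identifies the circle, with 30 bases of exon 4 in lower case and 30 of exon 2 in capitals, from GRCm38.
circTimp2 junction: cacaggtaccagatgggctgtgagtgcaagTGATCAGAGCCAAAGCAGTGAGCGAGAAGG

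circTimp2 had 4 and 6 junction reads in the whole-cell KO libraries and 5 and 5 in the WT libraries. In the cytoplasm it had 8 and 11 reads in KO and 4 and 6 in WT, and in the nucleus 0 in all 4 libraries. Per 10000 junction reads the cytoplasmic values were 1.58 and 1.74 in KO and 0.514 and 0.732 in WT. The nuclear libraries held just 2189 to 4383 junction reads, and a count of 0 allows up to 3. No difference was tested with 2 libraries a group, and whole-cell values overlapped while cytoplasmic ones did not.

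The remaining metalloproteinase and inhibitor genes were mostly silent. Of 17, 5 passed the filter and 6 were at 0 in every library. Mmp11 (stromelysin 3) was lower in KO, at 9.38 ± 0.20 FPKM against 11.2 ± 0.18 (SD, n = 3; log2 fold change -0.26, SE 0.07, adjusted p = 0.00671), and 0.70 below the median of its chromosome 10. Timp4, the remaining inhibitor, was lower as well, at 0.392 ± 0.055 FPKM against 0.790 ± 0.165 (log2 fold change -1.01, adjusted p = 0.00166). Mmp16, a membrane type enzyme, was higher at a low level, 0.334 ± 0.075 FPKM against 0.183 ± 0.058 (log2 fold change 0.87, adjusted p = 0.0199), a call lost without KO replicate 3 (0.0789), WT replicate 1 (0.0502) or WT replicate 3 (0.0886).

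ADAM and ADAMTS genes encode related metalloproteinases, the first mostly shedding proteins from the cell surface and the second cutting proteoglycans and procollagens. Of 10 ADAM genes tested, 2 were higher and 5 lower in KO, with a median log2 fold change of -0.26. Over all genes tested, 25.1% were called higher and 23.6% lower. Adam12 fell most among those named, from 3.87 ± 0.19 to 0.446 ± 0.054 FPKM (log2 fold change -3.12, SE 0.10, adjusted p = 5.80e-11). Adam17, the sheddase that TIMP3 blocks, was lower (-0.28, adjusted p = 0.00159), as were Adam19 (-0.67) and Adam23 (-0.23). The median of chromosome 1, which holds Adam23, was itself -0.21, with 44.3% of its 885 tested genes called lower and 15.3% higher, and Adam23 lay 0.02 from it, at percentile 48.0. Adam9 was higher (0.41, adjusted p = 0.000155), and so was Adam15 (0.24; median of its chromosome 3, 0.16), whose call was lost without WT replicate 2 (adjusted p = 0.0580).

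ADAMTS genes split evenly, with 5 higher and 5 lower of 11 tested and a median of -0.18, where 48.7% of all genes were called. Aggrecanase genes moved both ways. Adamts1 and Adamts5 were higher in KO, Adamts1 at 47.7 ± 4.4 FPKM against 17.9 ± 1.2 (log2 fold change 1.41, adjusted p = 4.22e-09) and Adamts5 at 16.8 ± 1.7 against 5.01 ± 0.42 (1.75, adjusted p = 1.57e-09). A further aggrecanase gene, Adamts4, named after its value was seen, went the other way, at 1.76 ± 0.11 FPKM in KO against 5.16 ± 0.42 in WT (-1.55, adjusted p = 4.09e-08). Adamts14, a procollagen N-proteinase, was higher too (0.48), but it lies on chromosome 10 and stood just 0.03 above that chromosome's median. Its relative Adamts2 was lower (-0.36). Adamts7 (-1.55) and Adamts10 (-0.31) were also lower.

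Among genes that activate, bind or clear these enzymes, 10 of 19 tested were higher and 4 lower, with a median of 0.18. The shares over all genes tested were 25.1% higher and 23.6% lower, and no difference from them was tested. Bsg (basigin, which induces metalloproteinases in fibroblasts) reached 321 ± 23 FPKM in KO against 213 ± 9 in WT (log2 fold change 0.59, adjusted p = 5.86e-06). Lrp1, the receptor that clears enzyme and inhibitor complexes, was 1.78-fold higher (0.84, adjusted p = 9.80e-06). Both genes lie on chromosome 10, Bsg 0.15 and Lrp1 0.39 above its median on the log2 scale, at percentiles 64.7 and 81.7 of that chromosome. Cathepsin genes Ctsb (0.65) and Ctsl (0.44), the cysteine protease inhibitor gene Cst3 (1.07) and Thbs2 (0.33), whose product binds MMP2, were higher as well. In this list Lcn2 and Ctsk are named after their values were seen. Lcn2, whose protein binds MMP9, had 0 reads in each KO library and 124, 118 and 135 in WT. Ctsk, the collagen-cleaving cathepsin K gene, had 178, 194 and 162 reads in KO and 3, 8 and 6 in WT.

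Transcription factors known to act on metalloproteinase promoters moved both ways, with 7 higher and 9 lower of 21 tested and a median of 0.0075. Calls over all genes tested came to 25.1% higher and 23.6% lower. The AP-1 genes Junb (-0.83, adjusted p = 8.90e-08), Jun (-0.70) and Fosl2 (-0.63) were lower in KO, together with Cebpb (-0.69), Rela (-0.24) and Stat3 (-0.19). The Stat3 call was lost without WT replicate 1 (adjusted p = 0.0732). AP-1 genes did not all fall: Fos, named after its value was seen, was higher (1.08, adjusted p = 2.25e-05), and Fosl1, Fosb and Jund missed the threshold (adjusted p = 0.164, 0.664 and 0.0984). Egr1 (0.98) and the ETS genes Elk3 (1.00), Etv1 (0.51), Ets1 (0.50), Etv5 (0.34) and Etv4 (0.30), also named afterwards, were higher. Elk3 lies on chromosome 10, 0.55 above its median. The remaining called genes, Nfkb1 (-0.57), Sp1 (-0.42) and the ETS gene Ets2 (-0.17), were lower.

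Of the cytokine and growth factor genes known to induce metalloproteinases, 5 of 14 tested were higher and 3 lower, with a median of 0.09. Among all genes tested, 25.1% were higher and 23.6% lower. Il6 fell from 2.40 ± 0.09 to 0.587 ± 0.059 FPKM (log2 fold change -2.03, adjusted p = 1.42e-06), and Hgf from 6.23 ± 0.41 to 2.95 ± 0.44 (-1.08). Pdgfa (0.65), Wnt5a (0.60), Tgfb3 (0.23) and Hbegf (0.49) were higher. The remaining called genes, Fgf2 and Egf, are named after their values were seen. Fgf2 rose from 0.561 ± 0.052 FPKM in WT to 2.18 ± 0.07 in KO (1.96, adjusted p = 3.21e-08). Egf was lower in KO (-0.96, adjusted p = 0.00115). The Hbegf call was lost without KO replicate 1 or 3 and without WT replicate 1 or 3, with adjusted p between 0.0503 and 0.0866. Il1b and Osm were listed at 0 in every library.

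Of 22 matrix substrates tested, 10 were called higher and 10 lower, with a median of -0.04, where 48.7% of all genes tested were called. Spp1 (osteopontin) was 2.69-fold higher (log2 fold change 1.43, adjusted p = 5.13e-10) and Col1a1 1.26-fold lower (-0.34, adjusted p = 0.000676). The abundant Bgn (0.21), Col1a2 (0.16) and Sparc (0.15) were slightly higher, and Fn1 slightly lower (-0.21, and -0.11 without KO replicate 2). Fn1 lies on chromosome 1, at percentile 49.5 of its genes. Fn1, Col1a2 and Sparc each lost their call when single libraries were left out: Fn1 without any 1 of the WT libraries (adjusted p up to 0.137), Col1a2 without KO replicate 1, WT replicate 2 or WT replicate 3 (up to 0.127), and Sparc without any 1 of the WT libraries (up to 0.0814).

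**Figure D5:**
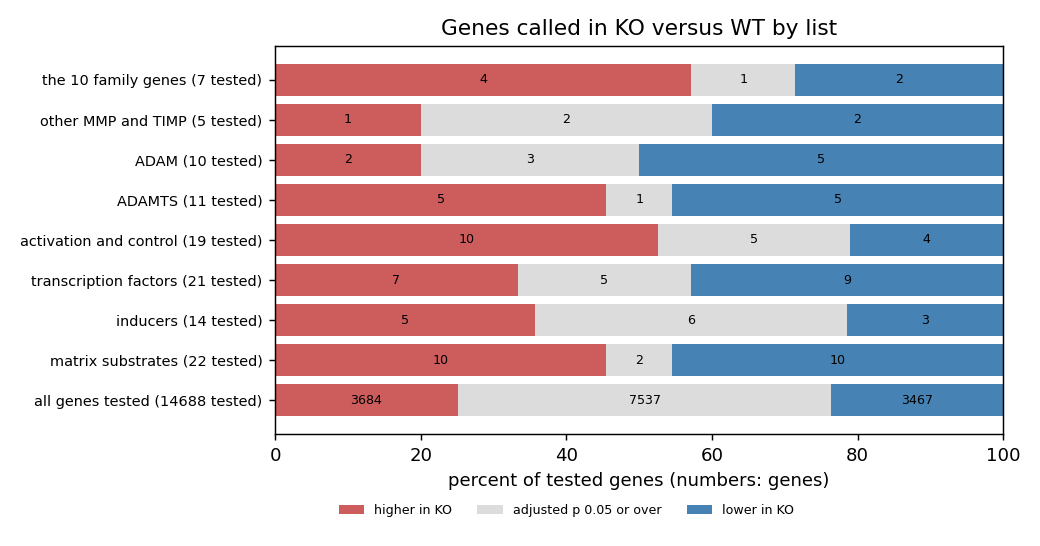
Percent of tested genes called higher in KO (red), lower in KO (blue) or not called (grey) in the 10 family genes, each related gene list and all genes tested, with the number of genes in each bar. The called share of all genes tested was 48.7%, and no difference between a list and all genes was tested. The list of other MMP and TIMP genes rests on 3 calls among 5 genes.

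The labelled cell type was checked with marker genes. All 13 fibroblast markers passed the filter, and their summed level ran from 2841 to 2947 FPKM in KO and from 2837 to 2934 in WT. Within the list 6 were higher and 6 lower in KO, where 48.7% of all genes tested were called. Dcn (decorin) was at 26.2 ± 1.5 FPKM in KO against 89.7 ± 2.0 in WT (log2 fold change -1.78) and Lum (lumican) at 5.17 ± 0.33 against 15.5 ± 0.88 (-1.58), while Thy1 was at 115.1 ± 4.9 against 63.2 ± 1.7 (0.86) and Fap at 0.204 ± 0.048 against 0.00534 ± 0.00925. These 4 were named after their values were seen. The labels' extraction text speaks of blood, yet no neutrophil, lymphoid or erythroid marker passed the filter, and none exceeded 12 reads in a library. Of the myeloid markers given above, 5 of 8 did pass, with up to 268 reads in a library (Cd14). Among epithelial markers Krt14 alone passed, with 18, 9 and 8 reads in KO and 89, 91 and 112 in WT, while Epcam and Krt18 were at 0. Of 5 endothelial markers 2 passed and neither was called.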

How the data were processed

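mRNA-seq (3 WT and 3 KO libraries) and circRNA-seq (12 libraries) of NIH/3T3 cells were used. The authors aligned mRNA reads with HISAT2 and deposited raw counts of read pairs per gene from featureCounts (version 2.0.0; mm10; exons summed by gene; no strand option), and for circRNAs the count of junction reads. Reads overlapping several genes are not assigned by default. No molecular identifiers are named. Genotypes came from the sample titles.

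The edgeR quasi-likelihood test (edgeR 4.0.16 in R 4.3.3, TMM scaling, filterByExpr) was run on the counts with Benjamini-Hochberg adjustment over 14688 genes and a threshold of 0.05. FPKM were computed from counts, exon length and counted pairs (Python 3.11.15, pandas 2.3.3). On simulated counts 95.5% of 1.5-fold and 100% of 2-fold changes were recovered (14647 genes), with 15 unchanged genes called. The simulation changed few genes, all well counted, equally up and down. It gave every gene the same dispersion, with no shift of a chromosome or a library. It therefore does not show recovery at low counts or where as many genes differ as here. Alternatives were DESeq2 (version 1.42.0), other scalings, no filter, TPM, each library left out, and the replicate number as a block. Symbols were matched for 55141 of 55401 IDs.

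Members and lists were chosen with earlier results of these data known. All 10 genes are named with every library, and of each list up to 6 called genes with the highest mean FPKM. Protein features were not analysed here. Mmp3 to Timp1 and Mmp13 to Timp1 ratios were not computed, since most libraries were at 0.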

Additional observations from a re-analysis of the deposited data

How the results depend on the processing

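The 7 genes tested kept their direction in every alternative. Their calls, 4 higher and 2 lower in KO, changed only for Mmp14 (3 higher without WT replicate 2 or WT replicate 3) and for Timp3 (called lower with no filter and without KO replicate 3). Over all genes 7151 were called, 6662 with DESeq2, 7696 with no filter, and 6140 to 7398 with a library left out. With the replicate number as a block 7124 genes were called, and no call among the 10 genes changed. Same-numbered libraries correlated at 0.0615, 0.0359 and -0.0889 in their deviations, so the numbers do not pair them, and not every library correlated best with its own number. With a library left out, the count of other metalloproteinase and inhibitor genes higher in KO ranged from 0 to 1 (0 without KO replicate 3, WT replicate 1 or WT replicate 3), and that of ADAM genes higher in KO from 1 to 2 (1 without WT replicate 2), where fewer libraries entered the fit. The ratios kept their direction in each alternative run. Depth limits Mmp3, Mmp10, Mmp13 and circTimp2, where a few reads decide a value.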
